A study of Mus musculus with 9 samples.

Results

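The giant and cross-linking proteins that hold the sarcomere in register were followed through their transcripts in mouse hindlimb skeletal muscle. The 9 genes were taken as a fixed list of symbols, namely the titin gene Ttn, the nebulin genes Neb and Nebl, the obscurin-like gene Obsl1, the myomesin genes Myom1, Myom2 and Myom3, and the myosin-binding protein C genes Mybpc1 and Mybpc2. All 9 were measured, among 22180 genes, and each had 1 probe set. RNA came from mice of mixed strain aged 2, 7 and 14 days after birth (P2, P7 and P14); each age has 3 biological replicates, which makes 9 arrays. The sources used here give no genotype, treatment or sex, and leave it unstated if single or pooled animals make up a replicate.

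In striated muscle, titin spans from the Z disc to the M-band and acts as a molecular spring, and nebulin lies along the thin filament. Myomesins tie neighbouring thick filaments together at the M-band, and myosin-binding protein C wraps the thick filament and tunes its contact with actin. Several of these proteins come in forms that belong to slow, fast or heart muscle, and in the weeks after birth rodent limb muscle exchanges its developmental contractile proteins for adult ones.

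Regulatory sequence just upstream of the transcription start is shown for 3 of the genes, because they carry the contrast of the results that follow. Mybpc2 had the largest change of the 9, its paralogue Mybpc1 had values that went the other way, and Ttn had a change near 0 despite its central place in the same structure. The sequences are from RefSeq (GRCm38.p6), 5′ to 3′ on the gene's strand, cut where the annotated gene begins, and capitals mark matches to the motifs named in the next paragraph.
Mybpc2, chr7:44524716-44524919, minus strand: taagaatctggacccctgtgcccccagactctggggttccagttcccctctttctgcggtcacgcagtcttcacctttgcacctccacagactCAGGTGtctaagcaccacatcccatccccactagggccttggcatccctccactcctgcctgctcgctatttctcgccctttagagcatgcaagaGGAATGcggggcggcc
Mybpc1, chr10:88605230-88605402, minus strand: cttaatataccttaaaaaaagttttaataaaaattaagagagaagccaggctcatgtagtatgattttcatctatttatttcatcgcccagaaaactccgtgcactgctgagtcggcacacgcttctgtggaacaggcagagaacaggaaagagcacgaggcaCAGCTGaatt
Ttn, chr2:76982558-76982797, minus strand: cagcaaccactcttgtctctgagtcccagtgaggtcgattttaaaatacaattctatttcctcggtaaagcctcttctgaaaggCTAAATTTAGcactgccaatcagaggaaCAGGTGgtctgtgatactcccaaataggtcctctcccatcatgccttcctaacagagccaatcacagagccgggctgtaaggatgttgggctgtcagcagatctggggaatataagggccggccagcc

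The motifs were searched on both strands in the 250 bases upstream of each listed start. They were the E-box (CANNTG), bound by myogenic factors such as MyoD, the MCAT element (CATTCC), bound by TEAD factors, and the MEF2 box and the CArG box, bound by MEF2 and SRF. Mybpc2 had an E-box 157 to 152 bases before the start and an MCAT element 62 to 57 bases before it. Mybpc1 had E-boxes at 87 to 82 and at 57 to 52 bases, the latter in the part that is not shown. Ttn had a MEF2 box at 166 to 157 bases and an E-box at 138 to 133. No match overlapped a match of another motif. The E-box was in 66.2% of the 32851 listed promoters, the MCAT element in 12.6%, the MEF2 box in 2.92% and the CArG box in 1.47%. Promoters were listed for 7 of the 9 genes (4 for Nebl, 1 for each of the others). Among those not shown, Myom3 had a MEF2 box at 35 to 26 bases, Myom1 a CArG box at 99 to 90, and Nebl a CArG box at 162 to 153 and, in another of its promoters, an MCAT element at 230 to 225. The remaining matches were E-boxes. A match is a run of letters and not a measured binding site.

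Values are log2 intensities, on which a difference of 1 is a doubling, and a gene was called changed when the adjusted p of the limma fit across all 22180 genes was under 0.05. Across genes, which are not independent replicates, the correlation between arrays of an age was 0.953 to 0.964 for P2, 0.967 to 0.974 for P7 and 0.981 to 0.984 for P14. P2 thus had the widest spread. A background level of 3.23 was set as the 95th percentile of 1447 smell, taste and pheromone receptor genes. Muscle actin Acta1 and muscle creatine kinase Ckm had means of 10.22 to 12.12 over the 3 ages, far above that level. In bulk muscle, fewer fibres of a type and less transcript per fibre cannot be told apart.

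From P2 to P14, 3 of the 9 genes rose (Mybpc2, Myom2 and Neb), 0 fell and 6 were not called. Over all genes 11.0% were called for that pair of ages in either direction, and 6.63% were called higher. From P2 to P7 only Mybpc2 of the 9 was called, as higher, where 0.329% of all genes were called and 0.185% were called higher. From P7 to P14 limma called 0 of the 9 (1 at an unadjusted p under 0.05, Mybpc2), against 2.43% of all genes. The median log2 change of the 9 from P2 to P14 was 0.10, beside 0.01 over all genes. The 3 arrays of P14 lay entirely above or below the 3 of P2 for 6 of the 9 genes (4 higher and 2 lower), which was the case for 28.7% of all genes. The same held for 5 of the 9 between P2 and P7 (15.2% of all genes) and for 4 of the 9 between P7 and P14 (23.9%).

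**Figure D1:**
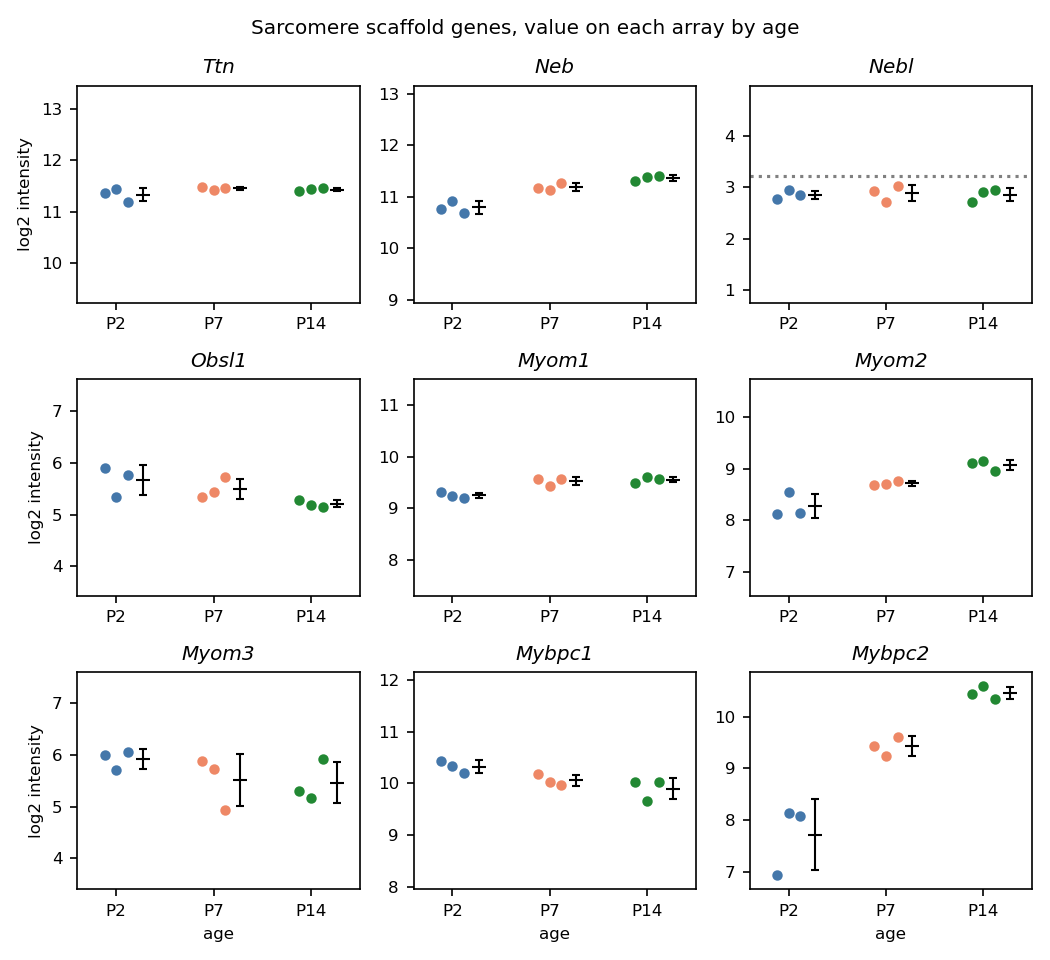
Log2 intensity (vertical axis, the same span in each panel) of the 9 genes on each array at P2, P7 and P14, with points for the replicates 1 to 3 from left to right and a bar for the mean and SD of the 3 arrays. Mybpc2 climbed from 7.72 to 10.46, Ttn stayed between 11.19 and 11.49, and Nebl lay under the dotted background level of 3.23 on all 9 arrays.

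The thick filament genes held the widest contrast. Mybpc2 encodes fast myosin-binding protein C, the form of fast-twitch fibres. It read 6.93, 8.14 and 8.08 on the P2 arrays, 9.44, 9.24 and 9.62 at P7, and 10.44, 10.60 and 10.35 at P14. No array of an older age overlapped one of a younger age, and P2 replicate 1 stood below the other P2 arrays. The means were 7.72 ± 0.69 at P2, 9.43 ± 0.19 at P7 and 10.46 ± 0.12 at P14 (SD, n = 3). Mybpc2 rose 6.71-fold from P2 to P14 (log2 change 2.75 ± 0.27, SE; adjusted p = 1.39e-05, limma with Benjamini-Hochberg adjustment), a change larger in size than that of 99.84% of genes. It rose 3.28-fold in the first interval (1.71 ± 0.27, adjusted p = 0.013). The change in the second interval was 1.03 ± 0.27, which was not called (adjusted p = 0.0592).

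The Mybpc2 calls differed in how they held when single arrays were left out. From P2 to P14 the call held without any 1 of the 9 arrays, with a log2 change of 2.35 to 2.96. From P2 to P7 it was lost without P7 replicate 1 (adjusted p = 0.0641) or P7 replicate 3 (0.0744), and the change was 1.32 without P2 replicate 1. From P7 to P14 the gene was called without P2 replicate 1 (adjusted p = 0.00405) or P2 replicate 2 (0.0387), and also when dim genes were left out (0.0358) or the prior variance followed the mean level (0.0296). P2 arrays do not enter the log2 change of that comparison, but they enter its adjusted p. They do so through the spread that the fit shares between ages, and through the other genes, since the adjustment runs over all genes. The spread of Mybpc2 was widest at P2 (SD 0.69). Over all genes 538 were called from P7 to P14, and 662 to 794 without 1 P2 array. The log2 change from P7 to P14 stayed 1.03 without either P2 array.

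Mybpc1 encodes the form known as slow myosin-binding protein C. It read 10.44, 10.34 and 10.20 at P2, 10.17, 10.02 and 9.98 at P7, and 10.02, 9.66 and 10.03 at P14. All P7 and all P14 arrays lay under all P2 arrays, while P7 and P14 overlapped. The log2 change from P2 to P14 was -0.42 ± 0.17 (95% interval -0.79 to -0.06), which was not called (adjusted p = 0.135). It was called only with a prior variance that follows the mean level (adjusted p = 0.0436), among 15 alternatives.

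Because both genes were read on the same arrays, their difference within each array was compared between ages. Mybpc2 minus Mybpc1 was -3.52, -2.19 and -2.12 at P2, -0.74, -0.79 and -0.36 at P7, and 0.42, 0.93 and 0.33 at P14. The difference moved upwards at each age with no overlap, by 3.17 from P2 to P14. Any difference among the 3 ages was tested by exact permutation of the F statistic over 1680 assignments of arrays to ages. This exact permutation test gave p = 0.00357, the smallest it can give (adjusted p = 0.00892 over 5 family pairs). The shift was 1.98 in the first interval and 1.19 in the second. It says that the transcripts changed unequally, not which of them was more abundant, since probe sets differ in brightness. Without single arrays the shift was 2.72 to 3.42, and the adjusted p was at most 0.0178.

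Of the other members of the family, cardiac Mybpc3 had means of 3.43, 3.36 and 3.32 at P2, P7 and P14, just above the background level, and the C-protein relative Mybphl had means of 2.70, 2.87 and 3.01, below it. Neither was called at any pair of ages, and Mybph was not analysed here.

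**Figure D2:**
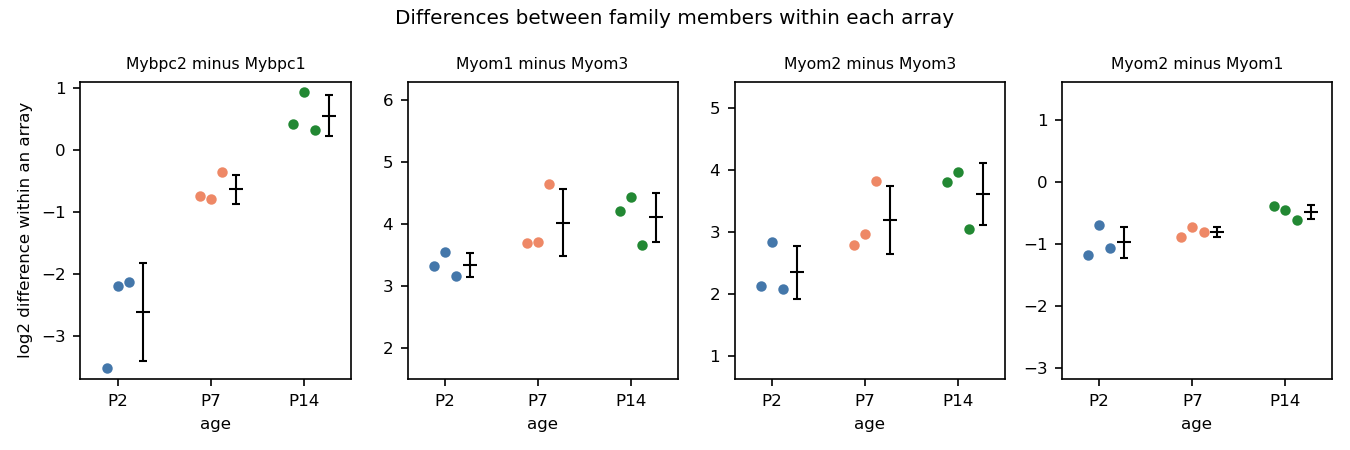
Difference in log2 intensity between family members within each array (vertical axis, the same span in each panel) at P2, P7 and P14, with points for single arrays and a bar for the mean and SD of 3. Mybpc2 minus Mybpc1 rose from -2.61 to 0.56 with no overlap of ages, while the differences that involve Myom3 overlapped.

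At the M-band, Myom2 was the only myomesin gene called. It encodes M-protein, a cross-linker found in fast fibres and in the heart. Myom2 read 8.13, 8.55 and 8.14 at P2, 8.68, 8.69 and 8.77 at P7, and 9.11, 9.14 and 8.96 at P14, with no overlap between ages. It rose 1.74-fold from P2 to P14 (log2 change 0.80 ± 0.17, SE; adjusted p = 0.00721), and the call held without any 1 of the 9 arrays, with adjusted p up to 0.0394. Neither interval reached a call alone, at 0.44 ± 0.17 in the first (adjusted p = 0.292) and 0.36 ± 0.17 in the second (0.352).

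Myom1 encodes myomesin, which is present in the M-band of all striated muscle. Its arrays read 9.31, 9.24 and 9.21 at P2, 9.57, 9.43 and 9.58 at P7, and 9.50, 9.60 and 9.58 at P14. The older ages lay above P2 on every array and overlapped each other. The log2 change from P2 to P14 was 0.31 ± 0.15 (95% interval -0.02 to 0.64; adjusted p = 0.241), so the gene was not called.

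Myom3 encodes a myomesin of slow and intermediate fibres. It read 5.99, 5.70 and 6.06 at P2, 5.88, 5.72 and 4.94 at P7, and 5.30, 5.16 and 5.92 at P14. The ages overlapped, with 1 low array at P7 (replicate 3) and 1 high array at P14 (replicate 3). The log2 change from P2 to P14 was -0.46 ± 0.25 (95% interval -1.0 to 0.09), not called (adjusted p = 0.296). Its change from P2 to P7 was -0.40 ± 0.25, and -0.12 without P7 replicate 3.

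The 3 myomesin genes were also set against each other within arrays. Myom2 minus Myom3 shifted by 1.26 from P2 to P14 (exact permutation test, p = 0.0571, adjusted p = 0.0714), Myom2 minus Myom1 by 0.49 (p = 0.0357, adjusted p = 0.0595) and Myom1 minus Myom3 by 0.76 (p = 0.0893, adjusted p = 0.0893). Each p is for any difference among the ages and not for the shift from P2 to P14 alone. None of the 3 passed after adjustment, so an unequal change among the myomesins was not shown with all 9 arrays. Without P2 replicate 2, Myom2 minus Myom1 shifted by 0.64 and passed (exact permutation test, adjusted p = 0.00595).

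Obsl1 encodes obscurin-like protein, which binds titin and myomesin at the M-band and also works with Cul7 and Ccdc8 in a complex needed for body growth. It read 5.90, 5.33 and 5.77 at P2, 5.34, 5.43 and 5.72 at P7, and 5.28, 5.19 and 5.15 at P14. P14 lay under both younger ages on every array, though by a narrow margin from P2 replicate 2. The log2 change from P2 to P14 was -0.46 ± 0.19 (95% interval -0.86 to -0.06), not called (adjusted p = 0.141), and it was called without P2 replicate 2 (-0.62, adjusted p = 0.0381).

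The thin filament gene Neb encodes nebulin, the ruler-like protein along actin. Its arrays read 10.77, 10.92 and 10.69 at P2, 11.18, 11.12 and 11.27 at P7, and 11.31, 11.39 and 11.41 at P14, again with no overlap between ages. Neb rose 1.49-fold from P2 to P14 (log2 change 0.57 ± 0.16, SE; adjusted p = 0.0286). That call was lost without P2 replicate 1 (adjusted p = 0.0708), P2 replicate 3 (0.0659) or any P14 array (0.0748 to 0.101). The log2 change was 0.52 to 0.60 in those fits. Over all genes 2447 were called from P2 to P14 with all arrays. That count was 1584 without P2 replicate 1 and 1373 to 1520 without 1 P14 array, but 2547 without P2 replicate 3. For Neb the first interval gave 0.40 ± 0.16 (adjusted p = 0.305) and the second 0.18 ± 0.16 (0.686).

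Nebl encodes nebulette, the nebulin relative of heart muscle. Its values of 2.71 to 3.02 lay under the background level on all 9 arrays, so no fold is given, and its fitted change from P2 to P14 was 0.00 ± 0.16. The within-array difference of Neb and Nebl, which is among the 5 pairs of the adjustment, is not read as a family contrast, since Nebl was not above background on any array. Its p in the exact permutation test was 0.00357. Keeping that pair in the adjustment lowered the adjusted p of Mybpc2 minus Mybpc1, of Myom2 minus Myom1 and of Myom2 minus Myom3.

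Ttn read 11.37, 11.44 and 11.19 at P2, 11.49, 11.43 and 11.45 at P7, and 11.40, 11.44 and 11.46 at P14, so that all ages overlapped. The log2 change from P2 to P14 was 0.10 ± 0.16 (adjusted p = 0.762), with a 95% interval of -0.24 to 0.43. The highest value of any probe set was 13.5, and whether bright probe sets respond less to a change was not tested. A probe set gives 1 value per gene, and the exon choices by which titin shifts its length after birth are not resolved by it.

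**Figure D3:**
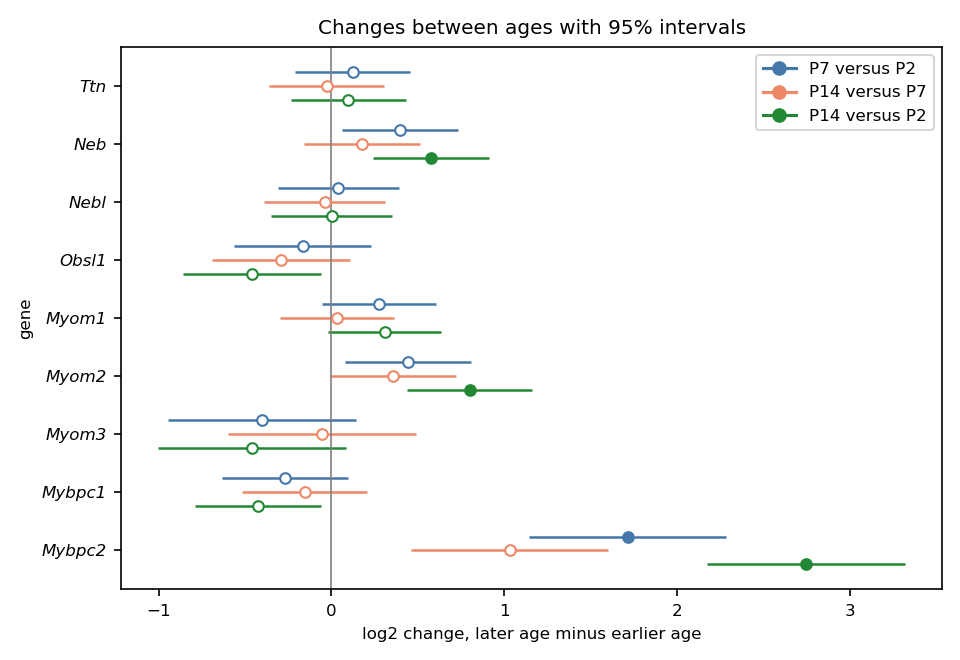
Log2 change of each gene (horizontal axis, later minus earlier age) from P2 to P7, P7 to P14 and P2 to P14, with the 95% interval of the limma fit across all genes and filled points where the gene was called. Mybpc2 stands far to the right at 1.71, 1.03 and 2.75, Neb and Myom2 are filled only from P2 to P14, and the intervals of Ttn and Nebl all span 0.

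Whether a gene changed more in the second interval than in the first was tested as a difference of the log2 changes. Limma called 0 of the 9 (0 at an unadjusted p under 0.05), with 0.194% of all genes called. The largest such difference was that of Mybpc2, -0.68 ± 0.46 (adjusted p = 0.75), which was -0.29 without P2 replicate 1. The intervals last 5 and 7 days, and the test does not scale by their length.

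Markers of fibre types were read on the same arrays. Of all genes 11.0% were called from P2 to P14 in either direction, with a median log2 change of 0.01. Of 8 fast fibre markers 7 rose from P2 to P14 and 0 fell (median log2 change 1.51), and their mean level ranged over 7.94 to 9.37 in the P2 arrays, 10.3 to 10.4 in the P7 arrays and 10.8 to 10.9 in the P14 arrays. The array with the lowest fast marker level, P2 replicate 1, also had the lowest Mybpc2. The order of the arrays within an age was the same for both at P14, but not at P2 or P7. Of 8 slow fibre markers 1 rose and 1 fell (median -0.29), with levels of 6.10 to 6.39, 5.90 to 6.49 and 5.75 to 6.64. Within each age the 3 arrays had the same order for Myom3 and for the slow marker level, which was 5.90 on P7 replicate 3 and 6.64 on P14 replicate 3, the outlying arrays of Myom3; this pairing was noticed after the values were seen. Of 6 developmental fibre markers 5 fell and 1 rose (median -1.86), with levels of 7.35 to 7.92, 6.42 to 6.79 and 5.53 to 5.65. The part of fibre types in the changes of the 9 genes was not tested.

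**Figure D4:**
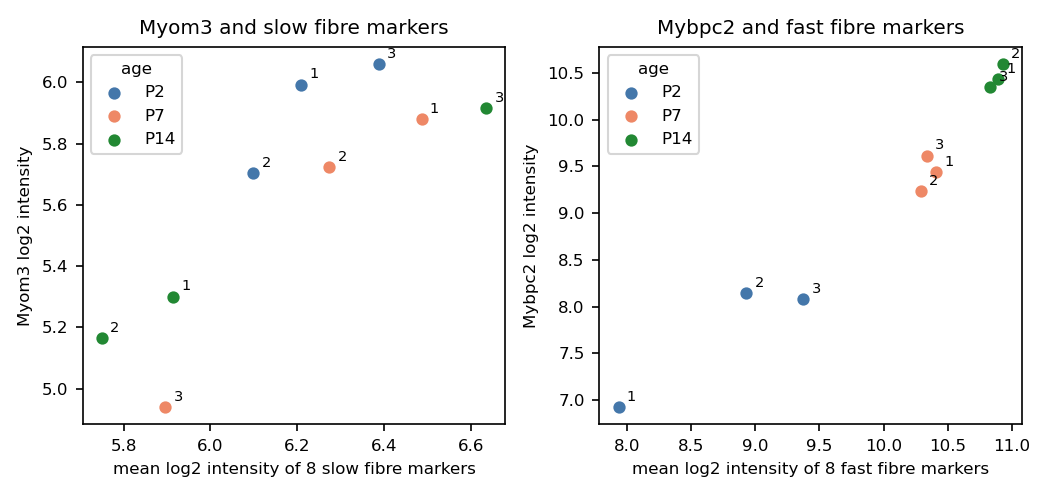
Left, log2 intensity of Myom3 against the mean log2 intensity of 8 slow fibre markers, and right, Mybpc2 against that of 8 fast fibre markers, with each point an array, coloured by age and numbered by replicate. P7 replicate 3 is low in Myom3 (4.94) and in slow markers (5.90), and P2 replicate 1 is lowest in Mybpc2 (6.93) and in fast markers (7.94).

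Markers of other cells were also read, beside the same share of 11.0% of all genes called from P2 to P14. From P2 to P14, 1 of 7 fibroblast markers fell, 0 of 7 endothelial, 0 of 7 macrophage and 0 of 4 measured Schwann cell markers were called, 2 of 6 smooth muscle and pericyte markers rose, and 1 of 2 measured erythroid markers fell. Single markers had wide changes, with Rgs5 of pericytes at 1.98 and the bone gene Ibsp at -4.44 on the log2 scale. Of 7 cartilage and bone markers 2 fell, and their mean level ranged over 4.42 to 5.38 in the P2 arrays, 3.86 to 4.89 in those of P7 and 3.73 to 3.87 in those of P14, where Acan, Ibsp and Sp7 were under the background level. Their part in the results was not tested.

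Partners of nebulin and of the thin filament ends rose in part from P2 to P14, 6 of 12 with 0 falling (median log2 change 0.51). Of all genes 6.63% were called higher for that pair of ages, with a median log2 change of 0.01. The nebulin relative Nrap, which anchors thin filaments while myofibrils assemble, rose 2.26-fold (1.18 ± 0.17), and 1.96-fold in the first interval already (adjusted p = 0.0308). The pointed-end caps Tmod4 (2.69-fold) and Tmod1 (1.70-fold) rose, as did the barbed-end capping protein subunits Capza2 (1.61-fold) and Capzb (1.52-fold) and the kelch gene Kbtbd13 (1.75-fold). Kbtbd13 was dim, with means of 3.64 at P2, 3.53 at P7 and 4.44 at P14 against the background level of 3.23. Its P7 replicate 2 read 3.16, under that level. Kbtbd13 was also the 1 gene of the list called in the second interval (adjusted p = 0.0416), where 2.43% of all genes were called. That call was lost without P7 replicate 2, P7 replicate 3 or any P14 array (adjusted p up to 0.178). The calls of Nrap and Tmod4 from P2 to P14 held in 15 of 15 alternatives, whereas that of Nrap in the first interval was lost when any array but P2 replicate 2 or P2 replicate 3 was left out (adjusted p up to 0.15). Capza2 lost its call without P14 replicate 2, Tmod1 without that array or P2 replicate 1, Capzb without P2 replicate 1 or any P14 array, and Kbtbd13 without P2 replicate 1, P2 replicate 2, P14 replicate 1 or P14 replicate 2; the highest adjusted p of these were 0.108, 0.064, 0.1 and 0.113. The leiomodins Lmod2 (log2 change 0.19) and Lmod3 (0.17) and actin Acta1 (0.17) were not called.

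Of titin's partners, 9 of 16 rose and 0 fell (median 0.70), beside 6.63% of all genes called higher and a median of 0.01. This list shares genes with others, since Actn3 is also a fast fibre marker, and Trim63 and Fhl2 are also on the list with the M-band partners. Ankrd23 and Ankrd2, ankyrin repeat proteins that bind titin's spring segment, rose 16.6-fold and 4.43-fold, while their relative Ankrd1 was not called (log2 change -0.22). Ankrd23 read 5.93, 6.61 and 7.63 at P2, 8.87, 9.10 and 9.40 at P7, and 10.77, 10.80 and 10.76 at P14, with no overlap. The ubiquitin ligases of the muscle RING finger group, which bind titin near the M-band or associate with the sarcomere, rose together, Trim63 by 3.04-fold, Trim54 by 2.26-fold and Trim55 by 1.61-fold. For Trim54 the log2 change was 1.17, and 0.69 when its probe sets were averaged (adjusted p = 0.00951). Telethonin (Tcap), which clamps titin at the Z disc, rose 2.60-fold, the protease Capn3 1.94-fold, the autophagy receptor Sqstm1 1.63-fold and fast alpha-actinin Actn3 3.24-fold, whereas Actn2 was not called (log2 change 0.23). Sqstm1 lost its call without P2 replicate 1, P14 replicate 2 or P14 replicate 3 (highest adjusted p 0.0702), and Trim55 without those, P2 replicate 2 or P14 replicate 1 (0.0986). Of all genes 0.185% were called higher in the first interval, and 2.43% were called in either direction in the second. In the first interval Ankrd23, Ankrd2 and Actn3 were called higher, and in the second Ankrd23 and Trim63. Of these 5 calls, that of Ankrd23 in the first interval held in 15 of 15 alternatives (highest adjusted p 0.041), and the others were lost without at least 1 array.

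On the list of obscurin kinases, M-band partners and partners of Obsl1, 4 of 12 measured genes rose, 2 fell and 6 were not called (median 0.40). The share of all genes called was 11.0% in either direction, with a median of 0.01. Creatine kinase Ckm (1.98-fold), the myosin chaperone cofactor Smyd1 (2.17-fold), Cmya5 (1.70-fold) and Trim63 were higher at P14. Cul7 and Ccdc8, which form the growth complex with Obsl1, fell by 1.08 and 0.85 on the log2 scale (adjusted p = 0.00262 and 0.00604), and both calls held in 15 of 15 alternatives. Fbxw8, the F-box partner of Cul7, was not called (log2 change -0.55, adjusted p = 0.108). Cul7 read 6.07, 6.00 and 6.14 at P2 and 5.39, 4.81 and 4.77 at P14. Cmya5 lost its call without P2 replicate 1, P2 replicate 3 or any P14 array (up to 0.0835).

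Among 11 splicing and transcription factors for these genes, 3 rose and 1 fell (median 0.41), all of them splicing regulators. The share of all genes called was 11.0% in either direction, with a median of 0.01. Rbm20, which sets titin's exon use, rose 1.99-fold (log2 change 0.99 ± 0.23, adjusted p = 0.0134), Mbnl1 1.84-fold and Rbm24 1.51-fold, and the repressor Ptbp1 fell by 0.77 ± 0.20. Only the call of Mbnl1 among the 4 held in 15 of 15 alternatives; Rbm20 lost it without P2 replicate 1, P14 replicate 1 or P14 replicate 2 (up to 0.0629), Ptbp1 without P2 replicate 3 or any P14 array (up to 0.0804), and Rbm24 with cyclic loess and without P2 replicate 1 or any P14 array (up to 0.103).

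The genes nearest in pattern were sought for the members with a called F-test over the 3 ages, Mybpc2 and Myom2. They had the smallest root mean square difference over the 9 arrays after each gene was centred on its own mean. Only genes with a mean above the median of all genes were searched. For Mybpc2 the nearest were Phkg1, a catalytic subunit of phosphorylase kinase (difference 0.256), the Xin repeat gene Xirp2 (0.271) and the uncoupling protein gene Ucp3 (0.278), with log2 changes from P2 to P14 of 2.34, 2.33 and 2.15. For Myom2 they were the tubulin cofactor gene Tbcc (0.0646), Kcmf1 (0.0829) and the splicing regulator gene Rbfox1 (0.0871), with log2 changes of 0.84, 0.72 and 0.72.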

How the data were processed

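Total RNA was extracted with Trizol and labelled with biotin, per the labels' protocols. The authors deposited 1 log2 value for each of 41345 probe sets on 9 arrays; the submitters' processing notes name RMA with Partek but no versions, and the base of the log2 scale is taken from RMA. The raw intensities were not used here. Of the probe sets, 23521 carry 1 gene symbol in the platform annotation, 1814 several and 16010 are not listed there; the first were used, 23328 of them with names updated through RefSeq, and the probe set with the highest mean was kept for each of 22180 genes. Linear models (limma 3.58.1, R 4.3.3) had 1 mean per age over all 9 arrays and no block, with two-sided tests and Benjamini-Hochberg adjustment over all genes; the fit was tested on simulated data. The p-values reflect only how far these samples spread, which may be in part technical, and precision is limited by having 9 arrays. Same-numbered replicates of different ages had deviations that correlated at -0.03 to 0.06 (9 pairs). Genes named are the 9 members, partner genes called at any pair of ages (otherwise the few with the smallest p), and the 3 nearest genes of each member with a called F-test. A few partner genes not called are named after their values were seen. Alternatives were a replicate block, median centring, cyclic loess, leaving out dim genes, averaging probe sets, a trended prior variance and leaving out each array. The members and lists were chosen with earlier results of these data known.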

Additional observations from a re-analysis of the deposited data

How the results depend on the processing

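Of the 9 genes, the counts called with the replicate number as a block were 1 from P2 to P7, 0 from P7 to P14, 3 from P2 to P14 and 0 for the difference between intervals, as without it, and the block changed no call of these genes. The same-numbered arrays share only a number. From P7 to P14 the count was 1 in place of 0 when dim genes were left out and 1 with a trended prior variance, Mybpc2 in both. Without single arrays it was 0 to 1 from P2 to P7 (0 without P7 replicate 1 or P7 replicate 3), 0 to 1 from P7 to P14 and 2 to 4 from P2 to P14. Partner genes called from P2 to P14 numbered 2 to 6 on the nebulin list (2 without P14 replicate 2) and 1 to 4 on the splicing list (1 without P14 replicate 1 or P14 replicate 2). Over all genes the count for that pair of ages was 2447, and 1373 to 2611 without single arrays. It was 1373 to 1520 without 1 P14 array and 1584 without P2 replicate 1. Of 24 partner calls from P2 to P14, 14 held in 15 of 15 alternatives; the alternatives for partners were added after the data were seen. Averaging probe sets could not change the values of the 9 genes, which have 1 probe set each. No called change reversed its sign. With 3 arrays per age, changes the size of that of Neb (0.57) lay near the limit of what was called. Over all genes the count called from P2 to P7 was 73, and 11 to 206 without single arrays, 171 without dim genes, 159 with a trended prior variance and 111 with cyclic loess.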

Other observations

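Some of the 9 genes varied more among the P2 arrays than later. In order of age the SD of Mybpc2 was 0.69, 0.19 and 0.12, that of Ttn 0.13, 0.03 and 0.03, and that of Obsl1 0.30, 0.20 and 0.07. The median SD over all genes fell in the same order, 0.251, 0.203 and 0.163. The SD was not lowest at P14 in every gene: that of Myom3 was 0.19, 0.50 and 0.40, that of Mybpc1 0.12, 0.10 and 0.21, and that of Nebl 0.09, 0.15 and 0.12. With 3 arrays per age these spreads were compared as values only. Among titin's partners, Ankrd2 spread from 3.50 to 4.92 at P2 and Trim63 from 4.59 to 5.89, and in both P2 replicate 1 was the lowest array and P2 replicate 2 the highest, as it was for Mybpc2.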
